A study of Mus musculus with 6 samples.

Results

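The genes described here are the members of 3 solute carrier families in mouse kidney: Slc2a, the facilitated hexose transporters, Slc5a, the sodium-coupled transporters of sugars, monocarboxylates and vitamins, and Slc16a, the monocarboxylate transporters. Entries of the deposited gene table were taken by symbol, wherever it began with Slc2a, Slc5a or Slc16a and a number. This gave 40 of 23396 entries, of which 13 were Slc2a, 13 Slc5a and 14 Slc16a. One of them, Slc2a4rg-ps, matches the symbol rule but is a transcribed pseudogene named for a regulator of Slc2a4, so 39 entries are transporter genes.

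RNA came from flash-frozen right kidneys of male mice aged 6 months and was sequenced as stranded total RNA after removal of ribosomal RNA. The knockout group was 3 mice of C57BL/6N-Far2tm2a(KOMP)Wtsi/2J, homozygous for the targeted Far2 allele. The wild-type group was 3 C57BL/6N mice. Far2 encodes a reductase that turns fatty acyl-CoA into fatty alcohol, and the study asked how its loss alters kidney gene expression. No Cre, drug or second allele is named for either group. The libraries of each group are numbered 0, 1 and 2 as in the deposited table, and these numbers pair no mice.

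The nephron filters large amounts of glucose, lactate and other small organic molecules and recovers them in the proximal tubule. Sodium-coupled Slc5a carriers take them up from the tubule fluid across the brush border, and Slc2a and Slc16a carriers move many of them onward into the blood along their gradient. The proximal tubule also makes glucose from lactate, so the same carriers serve both reabsorption and gluconeogenesis.

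The libraries held 15261362 to 20631158 fragments assigned to genes, and 14354 genes passed the filter on low counts. Far2 itself gave 40, 40 and 22 fragments in wild-type libraries 0, 1 and 2 and 28, 19 and 31 in knockout libraries 0, 1 and 2, so the groups overlapped (log2 fold change -0.23 ± 0.24 SE, edgeR with Benjamini-Hochberg adjusted p = 0.781). A sum over the gene does not tell which exons the fragments came from, so this value does not check the genotypes, and knockout and wild type below are the labels. The kidney identity genes Kap, Lrp2, Umod, Slc12a3 and Aqp2 were found in every library. Wild-type library 0 stood apart in the sum of 9 tubular injury genes. It was 1468 CPM (counts scaled to a common library size, with TMM factors) against 756 to 885 CPM in the other 5 libraries. Most of this sum came from Spp1, at 988 CPM in wild-type library 0 and 448 to 580 CPM in the other 5. Summed CPM of 10 macrophage genes was 429 in wild-type library 0 and 195 to 268 in the others.

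The 5 upstream sequences shown belong to the 3 Slc16a genes with the smallest p, and to Slc5a8 and Slc2a2, abundant carriers of lactate and of glucose. Each is the 250 bases before the RefSeq start on GRCm38.p6, written 5′ to 3′ on the strand of the gene. Capitals mark every match, on either strand, to one of 6 short motifs: GTTAAT (half-site of HNF1), CAAAGT (core of HNF4 sites), CACGTG (E-box bound by ChREBP, USF and MYC), AGGTCA (nuclear receptor half-site), TATAAA (the core of the so-called TATA box) and GGGCGG (GC box). The windows are chr3:104638414-104638663 on the plus strand for Slc16a1, chr3:107290980-107291229 on the plus strand for Slc16a4, chr10:40142255-40142504 on the minus strand for Slc16a10, chr10:88885742-88885991 on the plus strand for Slc5a8 and chr3:28697653-28697902 on the plus strand for Slc2a2.
Slc16a1: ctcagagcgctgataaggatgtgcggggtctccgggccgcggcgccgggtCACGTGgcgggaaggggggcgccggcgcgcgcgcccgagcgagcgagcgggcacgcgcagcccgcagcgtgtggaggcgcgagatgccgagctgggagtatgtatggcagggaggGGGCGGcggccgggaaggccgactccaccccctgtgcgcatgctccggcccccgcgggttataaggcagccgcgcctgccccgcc
Slc16a4: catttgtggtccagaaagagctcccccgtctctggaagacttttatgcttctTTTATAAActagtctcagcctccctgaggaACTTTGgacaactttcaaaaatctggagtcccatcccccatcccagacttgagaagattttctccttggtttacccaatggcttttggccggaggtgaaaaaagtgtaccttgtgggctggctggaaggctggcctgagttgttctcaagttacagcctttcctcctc
Slc16a10: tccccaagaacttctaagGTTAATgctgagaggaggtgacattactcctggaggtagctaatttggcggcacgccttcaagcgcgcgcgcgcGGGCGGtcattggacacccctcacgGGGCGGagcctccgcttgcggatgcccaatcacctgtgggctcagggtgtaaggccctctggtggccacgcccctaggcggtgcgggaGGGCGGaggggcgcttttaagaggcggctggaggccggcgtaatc
Slc5a8: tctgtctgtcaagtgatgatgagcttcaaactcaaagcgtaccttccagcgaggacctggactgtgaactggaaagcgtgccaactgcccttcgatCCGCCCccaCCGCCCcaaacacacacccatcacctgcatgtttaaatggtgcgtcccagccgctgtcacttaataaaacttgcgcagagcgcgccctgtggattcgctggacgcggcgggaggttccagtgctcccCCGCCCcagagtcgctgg
Slc2a2: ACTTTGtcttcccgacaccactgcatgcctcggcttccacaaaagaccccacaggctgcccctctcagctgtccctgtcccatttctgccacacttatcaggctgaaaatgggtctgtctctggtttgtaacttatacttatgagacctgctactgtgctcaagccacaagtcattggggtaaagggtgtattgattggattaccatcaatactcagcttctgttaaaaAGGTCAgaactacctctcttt

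Slc16a1, Slc16a10 and Slc5a8 have upstream sequence dense in CpG, with 37, 21 and 17 CpG in 250 bases, whereas Slc16a4 and Slc2a2 have 2 each. The E-box of Slc16a1 begins 200 bases before the start and its GC box 85 bases before. In Slc16a4 the TATA box letters match on both strands, overlapping each other, from 198 bases before the start, and an HNF4 core begins 168 bases before it on the other strand. Slc16a10 holds an HNF1 half-site 232 bases before the start and 3 GC boxes, Slc5a8 holds 3 GC boxes on the other strand, and Slc2a2 holds an HNF4 core at the far end of the window and a nuclear receptor half-site 21 bases before the start. RefSeq sequence was matched for 29 of the 40 entries, as 31 promoters. Of these 31, 3 held the E-box (Slc16a1, Slc16a12 and Slc5a1), against 6.02% of 32851 mouse promoters of the same length. The HNF4 core was in 3 (12.6% of all promoters), the HNF1 half-site in 2 (6.43%), the nuclear receptor half-site in 4 (14.0%), the TATA box in 3 (12.4%) and the GC box in 14 (32.7%). At least 10 CpG were found in 77.8% of the 9 Slc16a promoters, 41.7% of the 12 Slc5a promoters and 30.0% of the 10 Slc2a promoters, against 37.8% of all. Such matches describe letters only.

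Levels of different genes are compared as FPKM, the deposited fragments per kilobase scaled by library depth. Their means over the 6 libraries ran from 0.0144 FPKM (Slc5a5) to 171 FPKM (Slc5a2). Mean FPKM over the 6 libraries was at least 50 for 9 entries, at least 10 for 19, from 1 to under 10 for 11, and under 1 for 10. The tested entries with the highest FPKM stood far up among all tested genes: Slc5a2 lay above 97.0% of them, Slc5a12 above 96.5%, Slc5a8 above 95.8%, Slc2a2 above 94.9% and Slc16a9 above 94.8%.

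**Figure D1:**
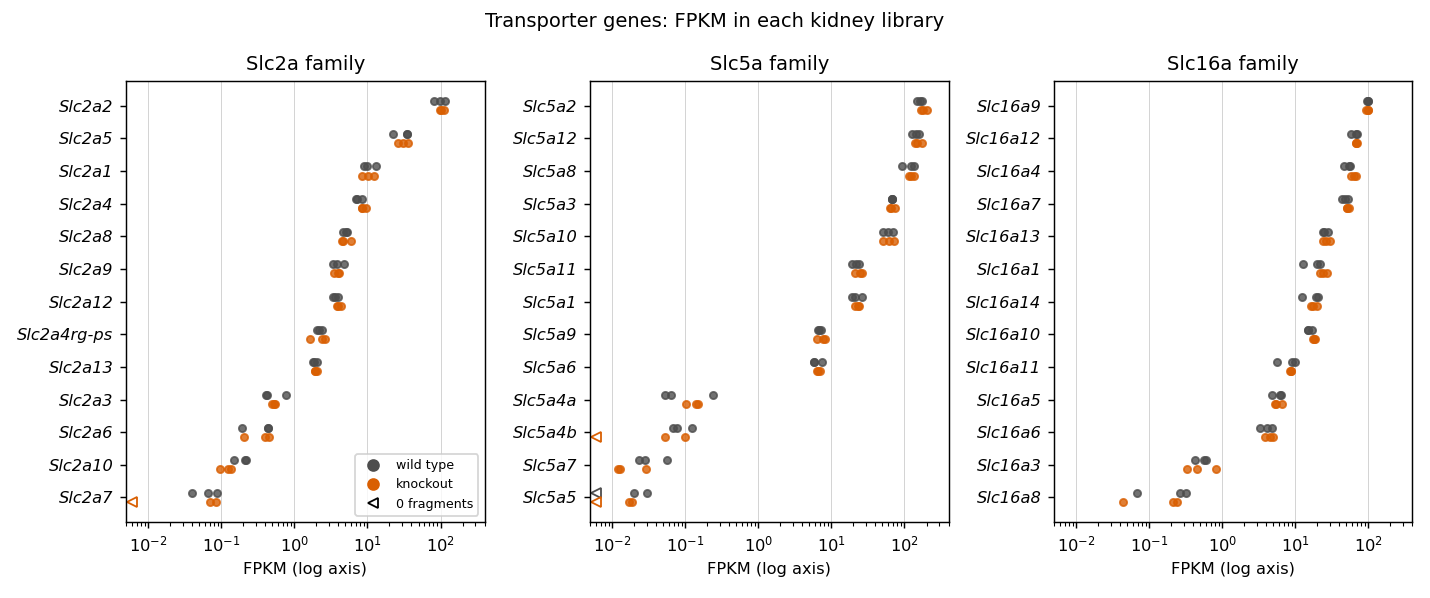
FPKM of 39 of the 40 entries in each of the 6 libraries on a log axis, 1 panel per family, grey points for wild type and orange for knockout, with open triangles at the left edge for libraries with 0 fragments. The leading genes, Slc2a2, Slc5a2 and Slc16a9, averaged 101, 171 and 97.2 FPKM, and for most genes the 2 colours lie on each other.

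Among the Slc5a sugar carriers, Slc5a2 (SGLT2), which takes up most filtered glucose in the early proximal tubule, led the family with 27.3% of its summed mean FPKM. Its level was 171, 162 and 146 FPKM in wild-type libraries 0, 1 and 2 and 180, 201 and 169 FPKM in knockout libraries 0, 1 and 2. Slc5a1 (SGLT1), the high-affinity glucose carrier of the later proximal tubule, was at 19.2 to 26.2 FPKM. The ratio of Slc5a2 to Slc5a1 FPKM was 6.52 to 7.70 in wild type and 7.54 to 8.71 in knockout, so the groups overlapped. Slc5a10 (SGLT5), a carrier of mannose and fructose, followed at 50.6 to 71.7 FPKM, and Slc5a9 (SGLT4), another mannose carrier, at 6.46 to 8.29 FPKM.

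The sodium-coupled lactate carriers came next to the glucose carrier. Slc5a12 (SMCT2), the low-affinity form, averaged 149 FPKM over 6 libraries (range 127 to 172), which overlaps the range of Slc5a2. Slc5a8 (SMCT1), the high-affinity form, averaged 121 FPKM (range 91.0 to 136), overlapping that of Slc5a12. Of the inositol carriers, Slc5a3 (SMIT1) was at 64.3 to 73.9 FPKM, overlapping the range of Slc5a10, and Slc5a11 (SMIT2) at 19.3 to 26.1 FPKM, within that of Slc5a1. Slc5a6, the carrier of biotin and pantothenate, was at 5.81 to 7.46 FPKM. Slc5a5 (the iodide carrier of the thyroid), Slc5a7 (the choline carrier of cholinergic neurons), Slc5a4a and Slc5a4b averaged under 1 FPKM, with 5, 13, 27 and 15 fragments in all 6 libraries together. Slc5a4a and Slc5a4b are paralogues, and how fragments that align to both were counted is not given.

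In the Slc2a family, Slc2a2 (GLUT2), the basolateral exit for glucose in the proximal tubule, held 60.1% of the summed mean FPKM. Its level was 114, 98.9 and 82.3 FPKM in wild-type libraries 0, 1 and 2 and 110, 103 and 99.7 FPKM in knockout libraries 0, 1 and 2. The wild-type range enclosed all 3 knockout values. Slc2a5 (GLUT5), the fructose carrier, was at 22.6 to 35.9 FPKM, below every value of Slc2a2. Slc2a1 (GLUT1), the widespread glucose carrier, and Slc2a4 (GLUT4), the insulin-responsive one, averaged 10.5 and 8.17 FPKM and their ranges overlapped. The order went on with Slc2a8, an intracellular hexose carrier, at 4.99, Slc2a9, the urate carrier, at 3.92, and Slc2a12 at 3.84 mean FPKM, with neighbours among these 3 overlapping. Slc2a13 (HMIT), a proton-coupled inositol carrier, averaged 1.93 FPKM. Slc2a3, known from neurons, Slc2a6, Slc2a10 and Slc2a7 averaged 0.529, 0.351, 0.156 and 0.0583 FPKM.

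The Slc16a family was led by Slc16a9 at 97.2 mean FPKM and Slc16a12, a creatine carrier, at 66.7. Slc16a9 held 24.0% of the family's summed mean FPKM and was steady, at 93.6 to 99.7 FPKM over the 6 libraries. Slc16a4, a member of little-known substrate, at 57.4 mean FPKM, overlapped both Slc16a12 and the next gene, Slc16a7 (MCT2), a high-affinity carrier of pyruvate and lactate, at 49.9. Further down the order were Slc16a13 at 26.1, Slc16a1 (MCT1), the widespread proton-coupled lactate carrier, at 21.1, Slc16a14 at 17.6 and Slc16a10 (TAT1), a carrier of aromatic amino acids, at 16.9 mean FPKM. From Slc16a13 to Slc16a10, neighbours in this order overlapped. Slc16a11, Slc16a5 and Slc16a6 averaged 8.45, 5.81 and 4.22 FPKM. Slc16a3 (MCT4), the lactate exporter of glycolytic tissue, and Slc16a8 (MCT3), known from retinal pigment epithelium, averaged 0.537 and 0.193 FPKM. The place of Slc16a7 depends on the gene length assumed: with CPM per kilobase of the longest GENCODE transcript it moved from rank 4 to rank 9 of the family, and Slc5a12 came before Slc5a2.

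The deposited loci of 6 entries overlap another gene, which makes their counts uncertain: Slc5a2, Slc5a3 (with Mrps6), Slc5a6, Slc5a10, Slc2a12 and Slc16a6. All other entries, and all of these but Slc5a3, had whole counts in every library. Together the 40 entries took 0.378 to 0.418% of fragments in wild type and 0.411 to 0.432% in knockout. The summed FPKM of the Slc16a family was 397, 399 and 377 in wild-type libraries 0, 1 and 2 and 407, 434 and 418 in knockout libraries 0, 1 and 2, so each knockout library lay above each wild-type library. This sum has no background share beside it and includes Slc16a1, Slc16a4, Slc16a7 and Slc16a10, which are described singly below. Its largest part, Slc16a9, averaged 97.3 FPKM in wild type and 97.2 in knockout. For the Slc5a sum (567 to 651 FPKM in wild type and 626 to 674 in knockout) and the Slc2a sum (138 to 182 and 160 to 188) the groups overlapped. In whole kidney, fewer cells of a type and less RNA per cell cannot be told apart.

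Between knockout and wild type, no transporter gene passed the test. Of the 39, 32 had enough fragments to be tested (10 Slc2a, 9 Slc5a and 13 Slc16a), and edgeR called 0 at a Benjamini-Hochberg adjusted p under 0.05. The same test called 0% of all 14354 genes, DESeq2 called 12 genes and none of these transporters, and limma-voom called no transporter either. The members with the largest difference were 3 Slc16a genes that averaged more in knockout: Slc16a1, Slc16a4 and Slc16a10. They were the 3 transporters with an unadjusted p under 0.05 in edgeR, which is 9.38% of 32 beside 8.31% of all genes (3.17% of all genes counting those higher in knockout alone). With both directions counted together this share is near the background and is not a result about the transporters. Counting only genes higher in knockout it is above the 3.17%, and it rests on 3 genes.

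Slc16a1, on chr3:104638668-104658462 (GENCODE, GRCm38), gave 76.9, 70.3 and 47.9 CPM in wild-type libraries 0, 1 and 2 and 88.6, 103 and 81.7 CPM in knockout libraries 0, 1 and 2. The groups did not overlap, and wild-type library 2 was the lowest by far. Behind that library stood 738 fragments, and behind the other 5 from 1483 to 1557. The means were 65.0 ± 15.2 CPM in wild type against 91.1 ± 10.8 CPM in knockout (SD, n = 3 each). The log2 fold change was 0.48 ± 0.16 (SE) with a 95% confidence interval of 0.13 to 0.83, and the edgeR Benjamini-Hochberg adjusted p was 0.599 (0.256 to 0.998 over the alternatives). Without wild-type library 2 the log2 fold change was 0.31, and without wild-type library 0 it was 0.62. The authors' deposited table gives Slc16a1 a log2 fold change of 0.44 and a q-value of 0.0191. It is the 1 entry of 32 tested there that the authors' deposited table calls, beside 0.657% of its 13404 genes. It is called there and not by edgeR or by DESeq2, whose Benjamini-Hochberg adjusted p was 0.256.

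Slc16a4, on chr3:107291230-107312115, gave 96.1, 77.3 and 98.2 CPM in wild-type libraries 0, 1 and 2 and 104, 122 and 112 CPM in knockout libraries 0, 1 and 2. Wild-type library 1 was the lowest and knockout library 1 the highest, with no overlap. The log2 fold change was 0.32 ± 0.10 (SE), edgeR Benjamini-Hochberg adjusted p = 0.599. Slc16a10, on chr10:40033532-40142258, gave 62.3, 71.0 and 66.1 CPM in wild type against 79.1, 80.5 and 74.2 CPM in knockout, in the order of the library numbers. All 3 knockout values lay above all 3 wild-type values, within a narrow spread. The log2 fold change was 0.23 ± 0.072 (SE), edgeR Benjamini-Hochberg adjusted p = 0.599. The authors' deposited table gives q-values of 0.485 for Slc16a4 and 0.765 for Slc16a10.

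**Figure D2:**
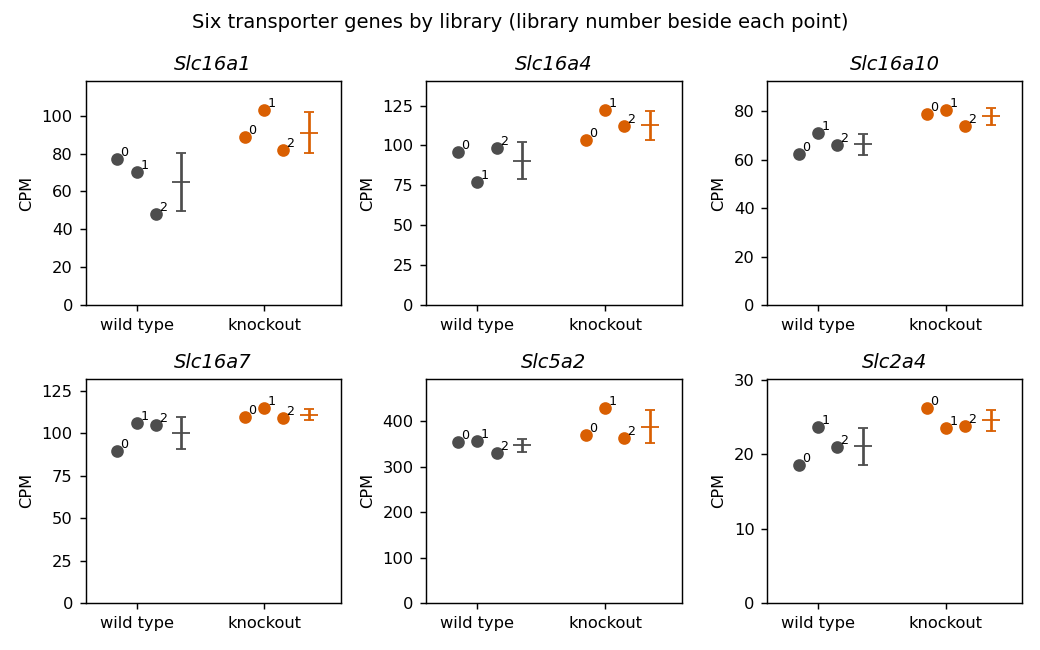
CPM by library for 6 transporter genes, with the library number beside each point and the mean ± SD of 3 libraries at the right of each group. The knockout points lie above all wild-type points for Slc16a1, Slc16a4, Slc16a10, Slc16a7 and Slc5a2, while for Slc2a4 knockout libraries 1 and 2, at 23.6 and 23.9 CPM, lie at the level of wild-type library 1, at 23.6 CPM.

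Apart from these 3, all knockout CPM lay above all wild-type CPM for Slc16a7 and Slc5a2. That makes 5 of 32 transporters (15.6%) beside 7.12% of all genes. None of the 32 had all knockout CPM below all wild-type CPM, beside 6.96% of all genes. With 3 against 3 the smallest two-sided exact permutation p for a single gene is 0.10. Slc16a7 gave 89.4, 106 and 105 CPM in wild type against 109, 115 and 109 CPM in knockout (log2 fold change 0.15 ± 0.077 SE), and wild-type library 0 alone stood well below. Slc5a2 gave 354, 357 and 331 CPM in wild type against 369, 429 and 364 CPM in knockout (log2 fold change 0.16 ± 0.082 SE), with knockout library 1 highest. Without knockout library 1 its log2 fold change was 0.077, and without wild-type library 0 that of Slc16a7 was 0.072. Both had an edgeR Benjamini-Hochberg adjusted p of 0.607.

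The fitted log2 fold change was above 0 for 25 of 32 transporters, while 48.3% of all genes were above 0. By family these were 9 of 9 Slc5a genes (median 0.11), 11 of 13 Slc16a genes (median 0.027) and 5 of 10 Slc2a genes (median -0.023), beside a median of -0.0066 over all genes. Every 95% interval but those of Slc16a1, Slc16a4 and Slc16a10 included 0, and all members come from the same 6 libraries, so the counts describe these libraries. With each library left out in turn, 21 to 27 transporters were above 0, the 21 without knockout library 1. In these fits 7 to 9 Slc5a genes, 8 to 12 Slc16a genes and 4 to 9 Slc2a genes were above 0. Some marker lists were also shifted to one side in these libraries. All 8 markers of the late proximal tubule (segment S3) had log2 fold changes above 0 (median 0.16). All 10 macrophage genes (median -0.46), all 7 stroma genes (median -0.43) and all 5 podocyte genes (median -0.16) were below 0. Others were mixed: 5 of 9 markers of the early proximal tubule (segments S1 and S2) were above 0 (median 0.097). So were 7 of 12 genes of distal tubule and collecting duct and 4 of 7 endothelial genes. Summed CPM of the macrophage genes was 429, 260 and 242 in wild-type libraries 0, 1 and 2 against 195, 260 and 268 in knockout, so the groups overlapped. That of the stroma genes was 361, 255.6 and 263.6 in wild type against 255.4, 224 and 233 in knockout. Wild-type library 0 was highest in both, and for stroma wild-type library 1 and knockout library 0 nearly met. None of these genes was at 0 in any library. The part of these cell types in the transporter counts was not tested.

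**Figure D3:**
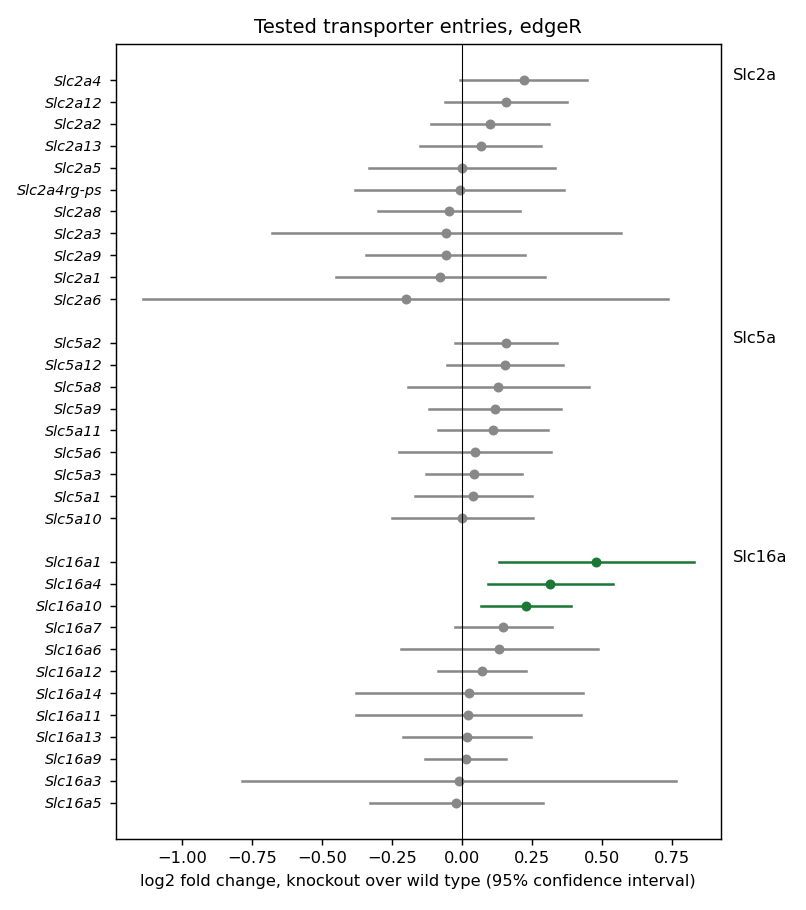
Log2 fold change from edgeR, positive where knockout is higher, with its 95% confidence interval, for 32 of the 33 tested entries, by family, in green where the unadjusted p was under 0.05. All 9 Slc5a points lie above 0 and all 9 intervals cross it, and the 3 green Slc16a intervals lie above it.

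In the Slc5a family, Slc5a12 gave 631, 679 and 583 CPM in wild-type libraries 0, 1 and 2 and 783, 659 and 665 CPM in knockout libraries 0, 1 and 2. Knockout library 0 stood above the rest, the other 2 lay within the wild-type range, and the log2 fold change was 0.16 ± 0.093 (SE), or 0.071 without knockout library 0. Slc5a8 gave 563, 371 and 545 CPM in wild type against 491, 546 and 582 CPM in knockout. Wild-type library 1 was far below the others, and without it the log2 fold change turned from 0.13 ± 0.14 (SE) to -0.035. Slc5a3 gave 587, 580 and 614 CPM in wild type against 663, 598 and 575 CPM in knockout, with a log2 fold change of 0.044 ± 0.077 (SE). Slc5a10 gave 151, 141 and 122 CPM in wild type against 156, 141 and 117 CPM in knockout, nearly the same spread in both groups, with a log2 fold change of 0.0021 ± 0.11 (SE). The 95% interval for this SGLT5 gene runs from -0.25 to 0.25. For Slc5a11 the values were 58.0, 57.2 and 51.5 CPM in wild type against 60.2, 65.9 and 54.2 CPM in knockout, with a log2 fold change of 0.11 ± 0.087 (SE), or 0.040 without knockout library 1. The other tested members, Slc5a1, Slc5a6 and Slc5a9, had log2 fold changes of 0.040, 0.048 and 0.12.

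In the Slc2a family, the smallest p belonged to Slc2a4, with 18.6, 23.6 and 21.0 CPM in wild-type libraries 0, 1 and 2 and 26.2, 23.6 and 23.9 CPM in knockout libraries 0, 1 and 2. Wild-type library 1 reached the lower knockout values. The log2 fold change was 0.22 ± 0.10 (SE), edgeR Benjamini-Hochberg adjusted p = 0.599. Slc2a4 is also expressed in fat, and 8 fat genes summed to 29.2 to 42.2 CPM in wild type against 42.0 to 84.8 CPM in knockout. The sum was highest in knockout library 2, where Ucp1 was at 21.1 CPM. Most of the sum in every library came from Fabp4 alone, at 27.5 to 48.4 CPM over the 6 libraries. The peak in knockout library 2 was not of Fabp4 alone. Each of the 8 fat genes was highest there, with Cfd at 7.22 and Cidec at 3.24 CPM. The 6 fat genes tested all had log2 fold changes above 0 (median 1.11). Adipoq and Ucp1 were found in every library, while Lep and Retn were at 0 in some, and the part of fat in the Slc2a4 value was not tested. Slc2a2 gave 259, 230 and 200 CPM in wild type against 258, 249 and 234 CPM in knockout (log2 fold change 0.10 ± 0.094 SE, or 0.012 without wild-type library 2). Slc2a5 gave 109, 113 and 77.4 CPM in wild type against 115, 101 and 84.2 CPM in knockout, 1 low library in each group, with a log2 fold change of 0.00053 ± 0.15 (SE).

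For Slc2a1 the values were 22.2, 34.2 and 26.8 CPM in wild type against 30.9, 26.5 and 21.7 CPM in knockout. Wild-type library 1 was the highest, and without it the log2 fold change turned from -0.076 ± 0.17 (SE) to 0.11. Slc2a8 gave 10.9, 11.2 and 10.3 CPM in wild type against 11.9, 9.77 and 9.70 CPM in knockout (log2 fold change -0.046 ± 0.11 SE), and Slc2a12 gave 12.6, 14.3 and 12.7 CPM and 14.0, 15.9 and 14.4 CPM (0.16 ± 0.098 SE). Both overlapped between groups. The other tested members, Slc2a3, Slc2a6, Slc2a9 and Slc2a13, had log2 fold changes of -0.056, -0.20, -0.058 and 0.068, and the pseudogene Slc2a4rg-ps one of -0.0079. Slc2a6 and Slc2a3, with 7 to 22 and 26 to 62 fragments per library, had standard errors of 0.42 and 0.28, so differences of those sizes were not detectable at this depth.

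In the Slc16a family, Slc16a9 gave 294, 292 and 299 CPM in wild type against 282, 309 and 302 CPM in knockout. Its values varied by 1.34% (coefficient of variation) among wild-type and 4.79% among knockout libraries, and its log2 fold change was 0.014 ± 0.065 (SE, 95% interval -0.13 to 0.16). Slc16a12 gave 229, 222 and 202 CPM in wild type against 225, 239 and 223 CPM in knockout, overlapping, with 0.072 ± 0.071 (SE) on the log2 scale. Slc16a14, a member of little-known substrate, was at 27.9 CPM in wild-type library 0 and at 37.6 to 47.9 CPM elsewhere. The log2 fold changes of Slc16a3, Slc16a5, Slc16a6, Slc16a11, Slc16a13 and Slc16a14 lay between -0.020 and 0.13.

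The libraries did not contribute evenly. Knockout library 1 held the highest CPM of 13 of the 33 tested entries (39.4%, beside 20.9% of all genes), among them Slc16a1, Slc16a4, Slc16a10, Slc16a7 and Slc5a2. Wild-type libraries 0 and 2 each held the lowest CPM of 9 (27.3%, beside 13.4% and 16.2% of all genes). In wild-type library 2 these included Slc5a2, Slc5a12, Slc2a2, Slc2a5 and Slc16a1, and in wild-type library 0 Slc16a10, Slc16a7 and Slc2a4. Summed CPM of 9 markers of the early proximal tubule (segments S1 and S2) was 9012, 9685 and 9533 in wild type and 9887, 9535 and 9556 in knockout, and of 8 markers of the late segment (S3) 9547, 8266 and 10790 and 9389, 10620 and 10760. None of these markers was at 0 in any library, and both sums overlapped between groups. Without wild-type library 0, the library with the high injury sum, 4 of 32 transporters had an unadjusted p under 0.05 in edgeR. This is near the 11.2% of all genes in that fit. All 4 averaged more in knockout: Slc16a1, Slc16a4, Slc16a10 and Slc2a2. Without wild-type library 1 there were 5 of 32, Slc16a7 and Slc2a4 joining the first 3, beside 6.16% of all genes. Without knockout library 1 there were 2 of 33, Slc16a4 and Slc16a10, beside 3.53%. The share of all genes higher in knockout was not counted for these fits.

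**Figure D4:**
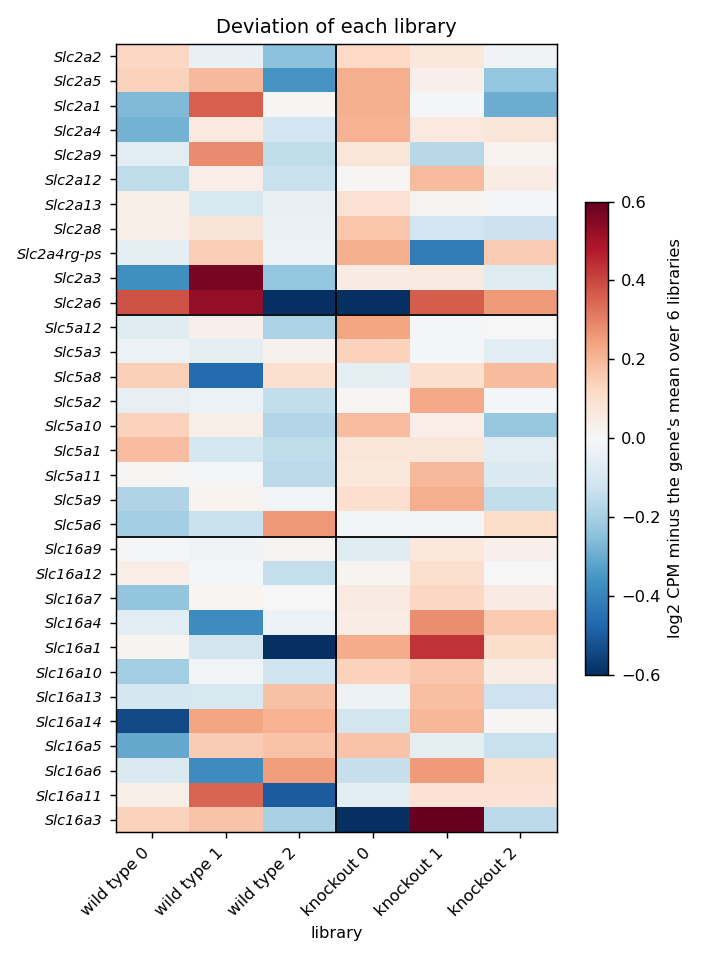
Log2 CPM of 32 of the 33 tested entries, each minus its mean over the 6 libraries, with families divided by horizontal lines and genotypes by the vertical line, red above and blue below the mean, and colours at their limit for a few genes of low level. Knockout library 1 is red in most Slc16a rows, wild-type library 2 is blue for Slc16a1 and Slc2a5, and wild-type library 1 is blue for Slc5a8 and red for Slc2a1.

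The 7 transporter genes left untested had few fragments. In the 6 libraries together they amounted to 57 for Slc2a10, 10 for Slc2a7 and 32 for Slc16a8, beside the 4 Slc5a genes given above. Slc2a10 gave 14, 15 and 8 fragments in wild type against 7, 7 and 6 in knockout. Slc2a7 and Slc5a4b were at 0 in knockout library 0, and Slc5a5 in wild-type library 0 and knockout library 1. A count of 0 allows up to 3 fragments, which is 0.170 CPM of the unscaled total in knockout library 0, for counting error only.

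Genes related to these carriers, among them enzymes, regulators and other transporters, were examined as 10 lists. None of their genes passed the adjusted threshold in the main edgeR fit. In the list of gluconeogenesis and glucose release, 5 of 8 tested genes had log2 fold changes above 0 and 3 below (median 0.13). The list was chosen with earlier results of these data known. Of its 8 genes, 3 had an unadjusted p under 0.05, all with higher means in knockout. This is 37.5% of the list beside 8.31% of all genes (3.17% counting those higher in knockout), and the median over all genes was -0.0066. They were Pck1, the enzyme that commits carbon to glucose (log2 0.35 ± 0.13 SE), G6pc, which frees glucose from its phosphate (0.32 ± 0.098 SE), and Slc37a4, which carries glucose phosphate to it (0.16 ± 0.069 SE). Pck1 gave 1516, 2038 and 2069 CPM in wild type against 2205, 2594 and 2344 CPM in knockout, without overlap. G6pc gave 610, 662 and 622 CPM in wild type against 906, 731 and 721 CPM in knockout, with knockout library 0 highest, as for Slc5a12. Without wild-type library 0 the log2 fold change of Pck1 was 0.21, and without knockout library 0 that of G6pc was 0.20. For these 3 genes the Benjamini-Hochberg adjusted p in edgeR was 0.599.

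Of 17 genes of lactate and pyruvate handling, 5 had an unadjusted p under 0.05, again all with higher means in knockout (median log2 0.14, 15 of 17 above 0). The share was 29.4% beside 8.31% of all genes, of which 48.3% were above 0. Pdk4, the kinase that shuts pyruvate dehydrogenase, differed most, by 0.77 ± 0.085 (SE) on the log2 scale, with an edgeR Benjamini-Hochberg adjusted p of 0.0722. It gave 30.5, 33.5 and 29.5 CPM in wild type against 50.8, 51.0 and 57.8 CPM in knockout. Over the alternatives its Benjamini-Hochberg adjusted p ranged from 1.1e-08 (DESeq2) to 0.6465 (edgeR without knockout library 1). The others were Mpc1, a subunit of the mitochondrial pyruvate carrier (0.23 ± 0.097 SE), Pdhx (0.21) and Pdha1 (0.16), parts of pyruvate dehydrogenase, and the citrate carrier Slc25a1 (0.19). Without knockout library 1 the value of Mpc1 was 0.11. Of 18 glycolysis genes, 1 had an unadjusted p under 0.05 (5.56%, below the 8.31% of all genes), Pgk1, at 0.22 ± 0.079 (SE), and the median was 0.062. These lists were drawn up with earlier results of these data known.

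Among 11 partners and regulators of the carriers, 2 had an unadjusted p under 0.05 (18.2%, beside 8.31% of all genes), in opposite directions. Txnip, an arrestin-like protein that removes glucose carriers from the membrane, gave 576, 601 and 546 CPM in wild type against 794, 671 and 654 CPM in knockout (log2 fold change 0.30 ± 0.090 SE). Its groups did not overlap. Sgk1, a kinase that promotes surface expression of several carriers, gave 69.0, 92.0 and 110 CPM in wild type against 72.5, 74.4 and 68.1 CPM in knockout (-0.33 ± 0.14 SE), with wild-type library 0 at the knockout level. Without wild-type library 2 the log2 fold change of Sgk1 was -0.17.

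In the 6 remaining lists, the share of genes with an unadjusted p under 0.05 ran from 0 to 10%, near or below the 8.31% of all genes. None of 12 transcription factors of the proximal tubule and of sugar sensing, 8 genes of fructose and polyol metabolism, 9 of inositol and osmolyte handling or 8 of urate handling reached that threshold. The smallest p in these 4 lists belonged to Epas1 (log2 fold change -0.22 ± 0.11 SE), Dcxr (0.13 ± 0.073 SE), Impa2 (-0.27 ± 0.15 SE) and Abcg2, a urate exporter (0.14 ± 0.074 SE). Of 10 genes of creatine and thyroid hormone handling, beside Slc16a12, 1 did: Gatm, the first enzyme of creatine synthesis, at 0.28 ± 0.088 (SE). Of 12 genes of vitamin and choline use, beside Slc5a6 and Slc5a7, 1 did: the choline carrier Slc44a2, at -0.28 ± 0.087 (SE). The median log2 fold changes of these 6 lists lay between -0.051 and 0.12.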

How the data were processed

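Stranded total RNA libraries were made from the right kidney of each of 6 male mice, as the labels' protocols state. According to the submitters' processing notes, the tools were Cuffdiff, Cufflinks 2.2.1, Bowtie2 2.2.3 with TopHat2 2.0.13, cutadapt 1.2.1 and SAMtools 1.2, on mm10. Which gene models and strand setting were used, and how fragments aligned to several places were treated, is not given in the sources used here. Per the file headers, the deposited values are, for each gene in each library, an estimated count of fragments and an FPKM made by the authors. The authors' deposited comparison table adds a log2 fold change, a p-value and a q-value per gene. The library numbers match none of the sample labels, so each library is 1 unnamed mouse of its group. The design text calls the mice biological replicates.

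Estimated counts were rounded to whole numbers (1.12% of values were not whole), kept where filterByExpr passed them, scaled with TMM factors, and tested over all genes in edgeR 4.0.16 in R 4.3.3 (quasi-likelihood F test, 2 groups, two-sided). Genes were called below 0.05 after Benjamini-Hochberg adjustment. The biological coefficient of variation was 10.1%. At 15261362 fragments or more per library, counting error is small for the abundant members and large for those with few fragments. The fit was tested on simulated data. Alternatives used RLE or upper-quartile scaling, other filters, robust dispersion, DESeq2 1.42.0, limma 3.58.1 (voom, or log2 of FPKM plus 1 or 0.1), a threshold of 0.10 and each library left out. Chosen after the data were seen was CPM per kilobase of the longest GENCODE vM21 transcript. Figures and summaries were made in Python 3.11.15.

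The members and gene lists were chosen with earlier results of these data known. Values by library are given, per family, for the 5 members of highest mean FPKM, the 3 of smallest p and those with an unadjusted p under 0.05. Of each list, the members past the threshold or else the 1 of smallest p are named, some with log2 fold changes only. Other genes named were chosen after their values were seen. Upstream sequences come from RefSeq, and both strands were searched. Results for some single genes were left out of the text and figures.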

Additional observations from a re-analysis of the deposited data

How the results depend on the processing

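No transporter gene was called under any of the 17 alternatives. The number of all genes called, 0 with edgeR, was 12 with DESeq2, 1 without a filter, 1 with robust dispersion, 1 with limma-voom and quality weights and 1 at a threshold of 0.10, and ranged from 0 to 1 with each library left out. The number of transporters with an unadjusted p under 0.05 was 3 of 32. It ranged from 2 of 33 (without knockout library 1) to 5 of 32 (without wild-type library 1). With each library left out, the share of all genes ranged from 3.53% to 11.2%. Of 560 recomputed log2 fold changes for 35 named genes, 534 kept their direction and side of the threshold. Another 4, all of Pdk4, passed the threshold where the main edgeR fit had not. They came from edgeR without a filter or with robust dispersion, DESeq2, and limma-voom with quality weights. The other 22 changed sign, none of them past the threshold in either case.

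Among the 35 named genes, sign changes fell on 7 members, with edgeR log2 fold changes from -0.076 to 0.13, and the cause was not tested. Tested members outside these 35 also changed sign with 1 library left out. Examples are Slc5a1 (-0.022 to 0.15), Slc5a6 (-0.038 to 0.20) and Slc16a6 (-0.0048 to 0.30). Upper-quartile scaling gave -0.016 for Slc2a5, -0.014 for Slc5a10 and -0.0020 for Slc16a9. The filter of 1 CPM gave -0.0037 for Slc2a5 and -0.0020 for Slc5a10, and limma-voom gave -0.0024 for Slc5a10. On log2(FPKM + 1) and log2(FPKM + 0.1), Slc5a3 was at -0.0023 and -0.0024 and Slc16a9 at -0.0020 and -0.0021. With each library left out, the log2 fold change ranged from -0.15 to 0.11 for Slc2a5, -0.22 to 0.11 for Slc2a1, -0.15 to 0.0091 for Slc2a8, -0.035 to 0.24 for Slc5a8, -0.017 to 0.089 for Slc5a3, -0.095 to 0.11 for Slc5a10, and -0.015 to 0.053 for Slc16a9. That of Slc16a1 ranged from 0.31 to 0.62, of Slc16a4 from 0.22 to 0.38 and of Slc16a10 from 0.18 to 0.28. Levels per effective length were not run, since that column holds no values. With CPM per kilobase, 13 of 15 leading members (5 per family) were shared. No paired analysis was possible because the library numbers carry no pairing. Depth limits what can be said of Slc2a3, Slc2a6, Slc16a3 and the untested members.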
